A study of Mus musculus domesticus with 18 samples.

Results

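High altitude location C was 1 of 3 places in La Paz, Bolivia, at 3600 m, where wild male house mice (Mus musculus domesticus) were trapped for a liver expression study. Its 3 mice were set against the 6 mice of high altitude locations A and B, 3 mice each, out of 18 mice in the whole study. The other 9 mice came from Lima, Peru, at 100 m, again 3 from each of 3 locations lettered A, B and C, and the letters name places within 1 altitude only. Groups followed the sample titles. The labels name no treatment, and all 18 samples were labelled male liver. The labels also give C57BL/6J, a laboratory strain, for every mouse, which is at odds with mice caught in the wild, so the titles and the design text were followed. Age was not given in the sources used here, and mouse 3 of high altitude location A was not analysed here, where the 3 mice were numbered 1, 2 and 4. Mice of high altitude are named by location and number, so that C2 is mouse 2 of location C.

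The comparison asks how far mice of a single altitude differ between trapping places. Each mouse gave 1 Affymetrix array, and 34945 probe sets that the annotation ties to a single gene were tested, for 18193 genes. Values are log2 signals, so a difference of 1 is a 2-fold change of signal, and a level can be compared between mice within a probe set but not between probe sets. The difference is always location C minus the mean of locations A and B. A probe set was called at an adjusted p under 0.05 in limma's moderated test over all 34945 probe sets. Location C is 1 place set against 2, and no test over places was run, so every p measures the spread between mice of a place and not between places. No detection calls were used, so a probe set near or under the array medians is not shown to be above background, and its differences are given on the log2 scale without a fold.

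The liver takes up, breaks down and exports lipids, makes most plasma clotting and complement proteins, and converts cholesterol to bile acids. Acid lipases cut cholesteryl esters and triglycerides, and lysosomal acid lipase is the member that does this in the lysosomes of liver cells. Many liver genes also differ between male and female mice, under control of the rhythm of growth hormone release. Resident macrophages and passing lymphocytes add immune transcripts to any sample of whole liver.

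The arrays of location C did not stand apart as a group. The correlation between arrays averaged 0.986 within C, 0.986 between C and A, 0.983 between C and B and 0.983 between A and B. Array medians lay between 5.29 and 5.33 in C, against 5.25 to 5.36 in A and B (exact two-sided permutation p = 0.833). The deposited values had already been normalized to make the arrays alike, so the medians could hardly show a difference between places. RNA integrity was read from the Actb controls, where the 3 prime less the 5 prime signal averaged 1.30 ± 0.09 in C (SD, n = 3) and 1.45 ± 0.39 in A and B (SD, n = 6, exact two-sided permutation p = 0.548). The 84 possible splits allow no p below 0.0238. The hepatocyte markers, 20 genes, averaged 12.96 to 13.08 in the C mice and 12.97 to 13.11 in the A and B mice. Eif2s3y, which is on the Y chromosome, read 7.53 to 7.77 in C, between 7.27 and 8.08 in A and B, and between 7.57 and 7.99 at low altitude.

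Probe set signals of location C differed from those of A and B for 10 genes. A call holds for a probe set, and other probe sets of Lipa, Rgl1, Slc5a1 and Sla were not called. The 2 Proz probe sets were both called but differed in size, at 4.02 and 1.29. By probe set, 6 were higher in C, 0.0172% of those tested, and 5 were lower, 0.0143%, or 11 in all, 0.0315%. Higher in C were the long noncoding RNA gene 9230114K14Rik, the lipase gene Lipo3, the transporter gene Slc18b1, the signalling gene Rgl1 and both probe sets of the plasma protein gene Proz. Lower in C were 1 probe set of the lysosomal acid lipase gene Lipa, and Fam25c, the glucose transporter gene Slc5a1, Sla and Ptpn22. In all 11 the 3 C mice lay wholly above or wholly below the 6 others. The count was 6 without mouse C2, 7 without C3, 7 without B3 and 17 without A4.

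**Figure D1:**
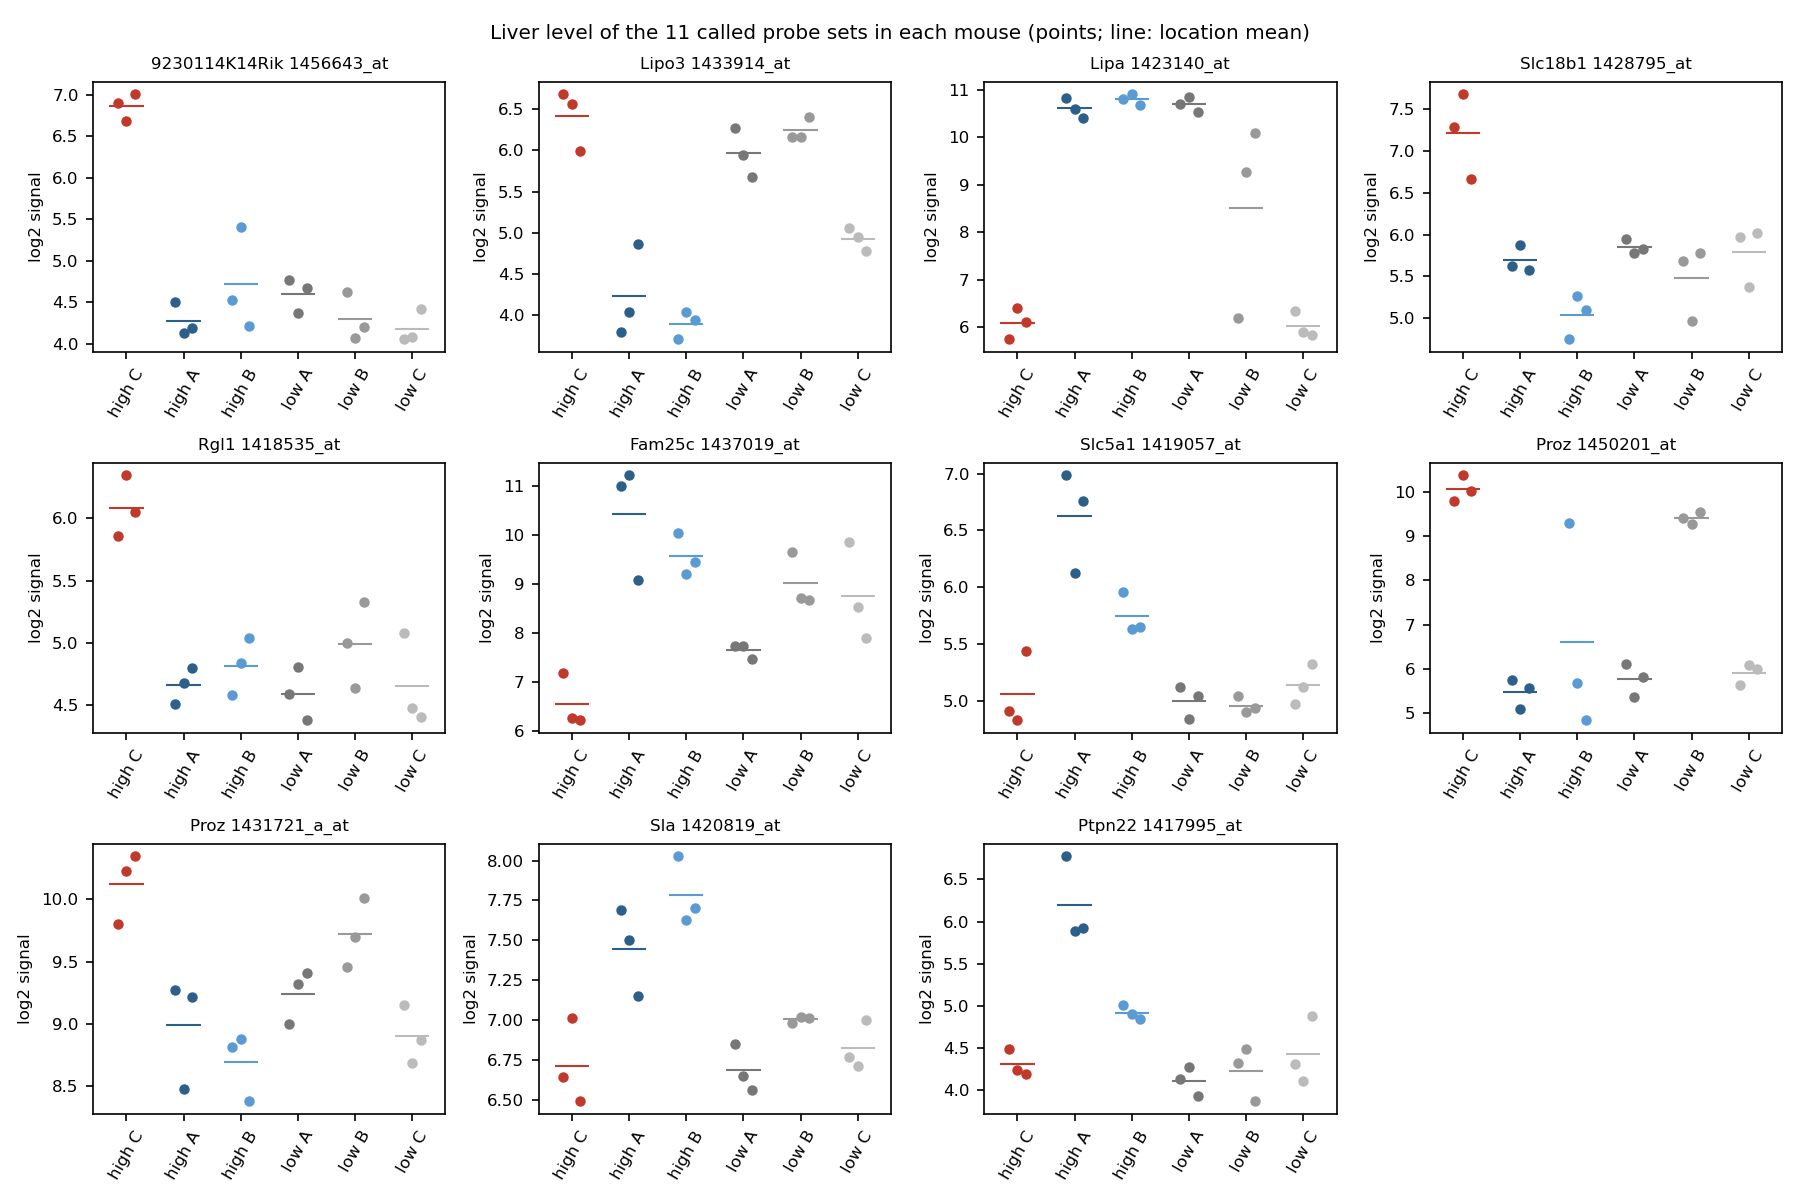
Log2 signal of each of the 11 called probe sets (1 panel each, vertical axis) in the 18 mice, by trapping location (horizontal axis). Points are mice and lines are location means. In every panel the 3 high C mice lie outside the range of the 6 high A and high B mice, while low altitude mice reach the C level for Lipo3, Lipa, Slc5a1, Proz 1431721_a_at, Sla and Ptpn22.

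Without adjustment, 1886 probe sets, 5.4%, had p under 0.05. The 3 C mice lay above all 6 others for 389 probe sets, 1.11%, and below them for 341, 0.976%. A difference of at least 2-fold, at any p, was seen for 182 probe sets, 0.521%. Of these, 21 were also without overlap and higher in C, 0.0601%, and 28 were without overlap and lower, 0.0801%. The median standard error of the difference was 0.127.

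**Figure D2:**
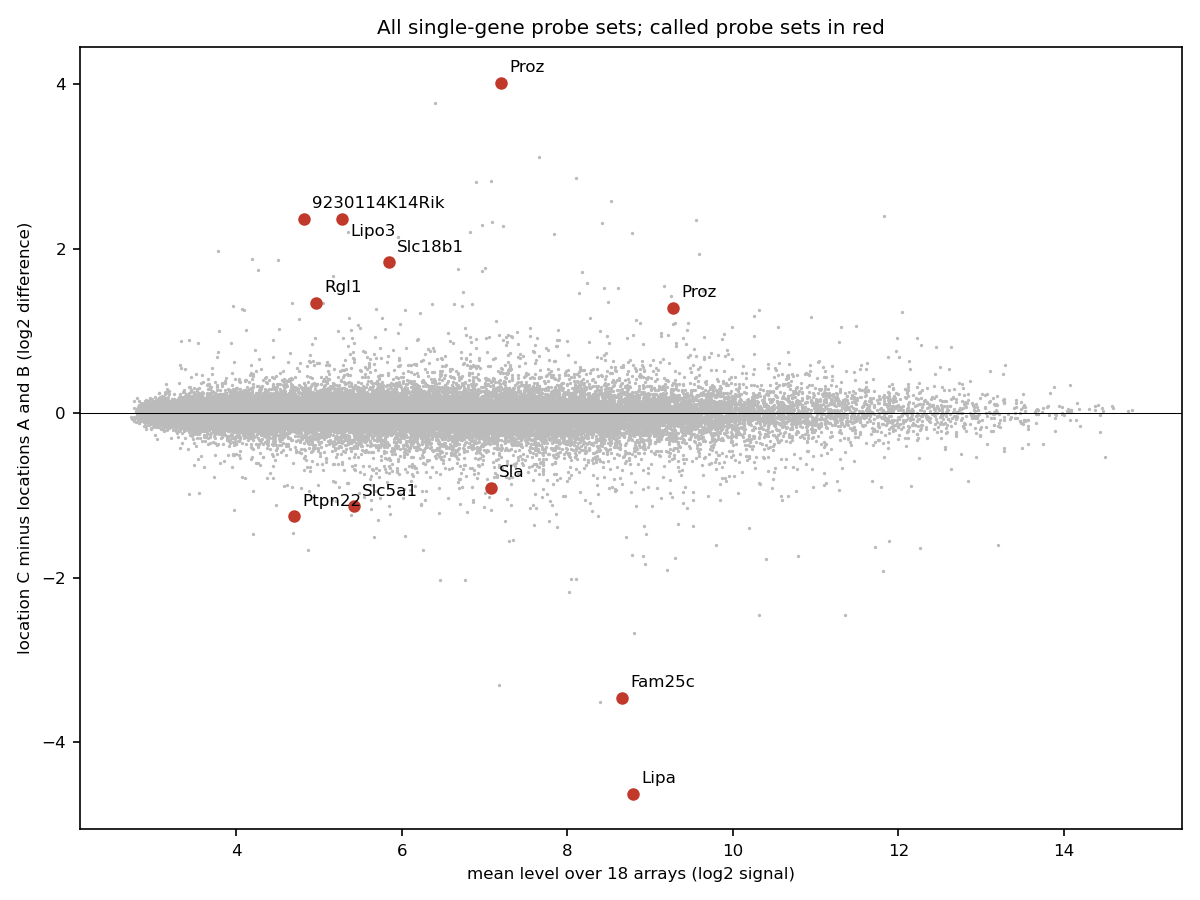
Difference between location C and locations A and B (vertical axis, log2) against the mean level over 18 arrays (horizontal axis, log2 signal) for the 34945 probe sets. Red points are the 11 called probe sets, which run from -4.62 for Lipa to 4.02 for Proz.

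Taken apart, C differed from A at 21 probe sets, 0.0601%, and from B at 32, 0.0916%. A and B also differed from each other, at 66 probe sets, 0.189%. Set against the other places of its own altitude in the same way, A had 26 calls, 0.0744%, and B had 75, 0.215%. These counts use the same mice, so they are given side by side only. The probe sets that passed against A and against B in the same direction numbered 6, or 0.0172%: 9230114K14Rik, Lipo3, Slc18b1, Rgl1, Lipa and Fam25c. Each of the other 5 called probe sets passed against 1 of the 2 places.

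Among the lipases, Lipo3, a little-studied member of the acid lipase family, was higher in C. Its levels were 6.69, 6.57 and 5.99 in C, against 3.79, 4.03 and 4.86 in A and 3.70, 4.03 and 3.94 in B. The lowest C mouse stood 1.13 above the highest other mouse. The difference was 2.36 ± 0.20 (SE, limma adjusted p = 4.98e-05), with adjusted p of 0.00113 against A and 0.000297 against B. At low altitude Lipo3 ran from 4.77 to 6.41 with a median of 5.94, so 4 of these 9 mice lay within the C range and 8 lay above all A and B mice. C differed from low altitude by 0.71 (adjusted p = 0.225), whereas A and B together lay 1.65 below low altitude (adjusted p = 0.000122).

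Lipa encodes lysosomal acid lipase, and its probe set 1423140_at had the largest difference of all calls. It read 5.75, 6.40 and 6.11 in C, against 10.84, 10.61 and 10.40 in A and 10.80, 10.92 and 10.68 in B. The difference was -4.62 ± 0.53 (SE, adjusted p = 0.00171), lower in C. Low altitude mice fell on both sides, with 10.71, 10.85 and 10.54 in A, 6.19, 9.27 and 10.09 in B, and 6.35, 5.91 and 5.84 in C. The other 2 Lipa probe sets did not follow: 1450872_s_at read 11.19, 11.41 and 11.38 in C and 10.93 to 11.40 in A and B, a difference of 0.22 ± 0.14 (SE), and 1423141_at differed by 0.01 ± 0.16 (SE). Neither passed the test (adjusted p = 1 for both), and both ranges overlap. Which part of the transcript each probe set reports was not analysed here, so the lower level is that of 1 of 3 probe sets.

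**Figure D3:**
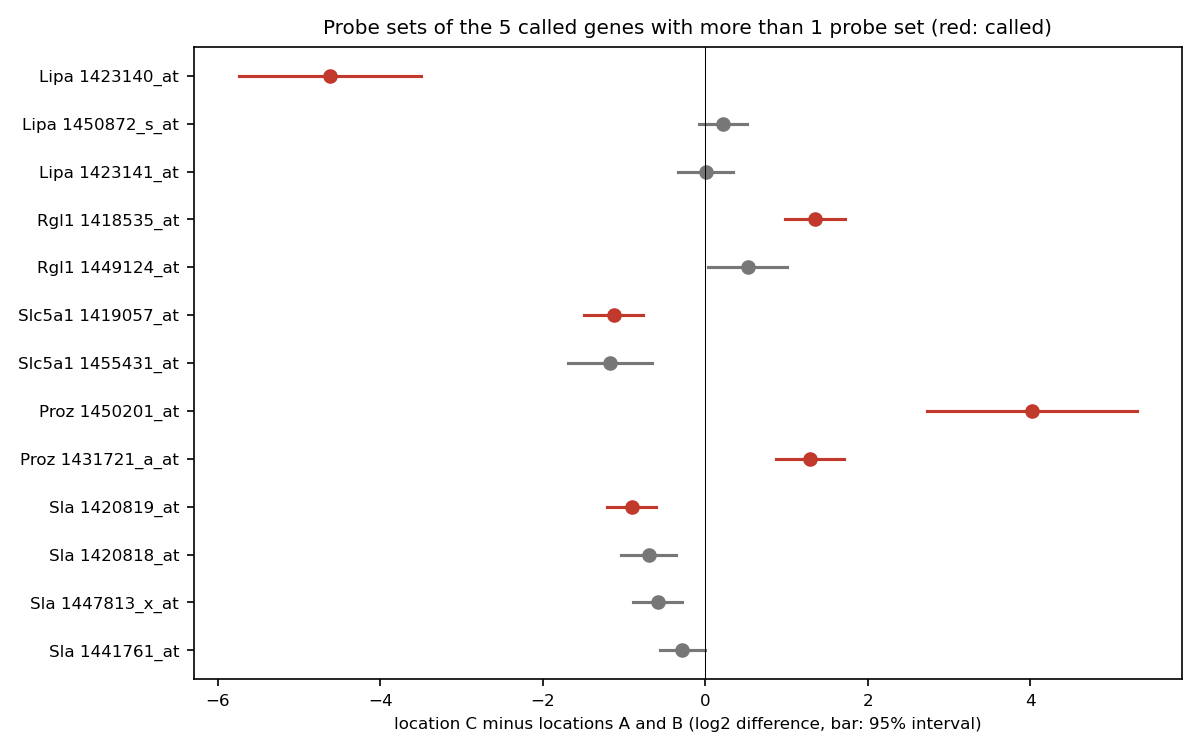
Difference between location C and locations A and B (horizontal axis, log2, bars are 95% intervals) for every single-gene probe set of the 5 called genes that have more than 1 (vertical axis). Red marks called probe sets. The Lipa probe sets part ways, at -4.62, 0.22 and 0.01, while all 4 Sla probe sets lie below 0.

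The acid lipase family held 7 measured genes with 10 probe sets, and 2 of these were called, 1 in each direction. Over all probe sets tested 0.0315% were called. The family was listed with Lipo3 already given as a marker gene, so its count of calls is not a result about the family. By the brightest probe set of each gene the family median was 0.10, against 0.01 over all 18193 genes. The other members differed little, with Lipk at -0.12, Lipm at 0.16, Lipf at 0.10, Lipo2 at 0.08 and Lipn at 0.02. Their means in C, A and B lay between 3.04 and 4.54, under the array medians, so a decrease could hardly have been seen. In the RefSeq gene order (assembly GRCm38.p6) Lipa and Lipo3 lie on the same chromosome with 11 steps between them among the measured genes. Lipo2, next to Lipo3, was not called, nor were the genes next to Lipa, Ch25h at -0.13 and Ifit2 at 0.54.

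Slc18b1, a transporter that loads polyamines into vesicles, was higher in C. It read 7.28, 7.68 and 6.66 in C, against 5.63, 5.88 and 5.58 in A and 4.75, 5.27 and 5.10 in B. The difference was 1.84 ± 0.22 (SE, adjusted p = 0.00193), and it passed against A (1.51, adjusted p = 0.0308) and against B (2.16, adjusted p = 0.000982). The call was lost without location B (adjusted p = 0.0566). All 9 low altitude mice lay below the C mice, between 4.97 and 6.02, and C was 1.50 above them (adjusted p = 0.00569). The other 3 genes of its family, Slc18a1, Slc18a2 and Slc18a3, differed by -0.21, 0.19 and 0.01, with no call. Slc18a2 and Slc18a3 averaged 3.66 and 4.14 in C, under the array medians. Of 29 probe sets for 14 genes of polyamine metabolism 0 were called by limma, with 1 at an unadjusted p under 0.05, and the list median was -0.10. Beside Slc18b1 in the gene order stand Vnn3 and Vnn1, pantetheinases of coenzyme A breakdown. Vnn1 averaged 10.26 in C, 9.15 in A and 6.99 in B (n = 3 each), a difference of 2.19 ± 0.80 (SE) that did not pass (adjusted p = 0.784). Vnn3 differed by 0.63 (adjusted p = 0.97).

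Slc5a1 encodes the sodium-glucose cotransporter SGLT1, known best from gut and kidney. Probe set 1419057_at read 4.91, 4.83 and 5.44 in C, against 6.99, 6.13 and 6.76 in A and 5.96, 5.63 and 5.65 in B. It was lower in C, with a difference of -1.13 ± 0.17 (SE, adjusted p = 0.0241), and its lowest A and B mouse stood 0.18 above the highest C mouse. The contrast with A passed (-1.56, adjusted p = 0.00301) and that with B did not (-0.69, adjusted p = 0.271). A second probe set, 1455431_at, differed by -1.17 ± 0.24 (SE) without overlap, and its adjusted p was 0.158. The call of 1419057_at was lost without mouse B3, C1 or C2 (adjusted p = 0.0552, 0.148 and 0.135). All 9 low altitude mice lay within the C range, and C minus low altitude was 0.03 (adjusted p = 0.991). Both averaged under the array medians, at 5.06 in C and 5.03 at low altitude, so a difference could hardly have been seen. A and B together were 1.15 above low altitude (adjusted p = 0.00058).

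Proz encodes protein Z, a vitamin K-dependent plasma protein that helps to inhibit clotting factor Xa. Probe set 1450201_at read 9.78, 10.38 and 10.02 in C, against 5.75, 5.10 and 5.57 in A and 9.30, 5.68 and 4.84 in B. Mouse 1 of location B thus came close to the C mice while the other 5 lay far below. The difference was 4.02 ± 0.61 (SE, adjusted p = 0.0241), and it passed against A (adjusted p = 0.0175) but not against B (adjusted p = 0.081). At low altitude the mice of location B read 9.41, 9.27 and 9.53 and the other 6 between 5.37 and 6.12. The second Proz probe set, 1431721_a_at, read 9.80, 10.23 and 10.35 in C, against 9.27, 8.48 and 9.22 in A and 8.82, 8.88 and 8.38 in B, a 2.44-fold higher level with a difference of 1.29 ± 0.20 (SE, adjusted p = 0.0241). Against B it passed (adjusted p = 0.0219) and against A it did not (adjusted p = 0.125). Mouse B1, close to the C mice by 1450201_at, read 8.82 by 1431721_a_at, within the range of the other A and B mice. The 2 probe sets thus did not follow each other mouse by mouse, and the reason was not tested. Calls were lost without mouse C1, C2 or C3 for 1450201_at (adjusted p = 0.0752, 0.127 and 0.11) and without B3, C2 or C3 for 1431721_a_at (adjusted p = 0.0552, 0.135 and 0.19). Fitted on the 9 high altitude arrays alone, neither Proz probe set was called (adjusted p = 0.267 and 0.169), nor were Slc5a1 1419057_at (0.214), Sla 1420819_at (0.249) and Ptpn22 (0.0979). The clotting factor genes F10 and F7, which neighbour Proz, differed by 0.08 and -0.07 with no call.

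Rgl1, an exchange factor for the small GTPase Ral, was higher in C by probe set 1418535_at. Its levels were 5.86, 6.35 and 6.05 in C, against 4.51, 4.68 and 4.80 in A and 4.58, 4.84 and 5.04 in B. The difference was 1.35 ± 0.17 (SE, adjusted p = 0.00456), and all 9 low altitude mice lay below C, at 4.38 to 5.33 (difference 1.34, adjusted p = 0.00251). The second Rgl1 probe set, 1449124_at, overlapped between the groups, with 0.52 ± 0.23 (SE, adjusted p = 0.901). Without mouse C2 the call of 1418535_at was lost (adjusted p = 0.059).

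Sla and Ptpn22 both act as brakes on antigen receptor signalling in lymphocytes, Sla as an adaptor and Ptpn22 as a phosphatase. Sla probe set 1420819_at read 6.64, 7.01 and 6.49 in C, against 7.69, 7.50 and 7.15 in A and 8.03, 7.63 and 7.70 in B, a difference of -0.90 ± 0.14 (SE, adjusted p = 0.0284). It passed against B (-1.07, adjusted p = 0.018) and not against A (-0.73, adjusted p = 0.196). The other 3 Sla probe sets differed by -0.70, -0.58 and -0.28 with adjusted p of 0.238, 0.294 and 0.918. Ptpn22 read 4.49, 4.24 and 4.20 in C, against 6.78, 5.89 and 5.92 in A and 5.01, 4.91 and 4.84 in B, a difference of -1.25 ± 0.20 (SE, adjusted p = 0.0284). For Ptpn22, A also stood 1.28 above B (adjusted p = 0.0364), and C minus A was -1.89 (adjusted p = 0.00215) and C minus B was -0.61 (adjusted p = 0.49). For Sla the call was lost without mouse A1, A2, B1, B3, C1 or C3 (adjusted p from 0.0512 to 0.229), and for Ptpn22 without B1, B2, B3, C1, C2 or C3 (adjusted p from 0.0559 to 0.193). Against low altitude C differed by -0.12 for Sla and 0.05 for Ptpn22, with adjusted p of 0.904 and 0.978, while A and B together stood above low altitude by 0.78 and 1.30, with adjusted p of 0.00236 and 0.00058. Ptpn22 averaged 4.31 in C, 4.92 in B and 4.26 at low altitude, under the array medians, so differences among these could hardly have been seen.

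Other lymphocyte transcripts are given next, and those that passed did so against A, as Ptpn22 did, whereas Sla passed against B. Of 19 T and NK cell markers 15 were negative in C, with a median of -0.20, and the mean of the list was 5.62 to 5.82 in C and 5.71 to 6.31 in A and B. By place the list averaged 5.71 in C, 6.26 in A and 5.81 in B, and 5.61 at low altitude, so C lay nearer to B and low altitude than to A. Of its 29 probe sets 0 were called by limma against A and B together, with 9 at an unadjusted p under 0.05, but Ccl5 and Cd7 were called lower against A. Ccl5, a chemokine of T and NK cells, read 7.84, 7.84 and 7.07 in C, against 9.62, 9.65 and 10.12 in A and 8.54, 8.23 and 7.66 in B, with -2.21 against A (adjusted p = 0.00763) and -0.56 against B (adjusted p = 0.721). Cd7 differed from A by -0.87 (adjusted p = 0.0062). The receptor genes Cxcr6, Cxcr3 and Gpr18 and the granule protease gene Gzmk, chosen after their values were seen, were also lower against A, with differences of -1.52, -0.79, -1.33 and -1.30 and adjusted p from 0.00215 to 0.0277, and had adjusted p of at least 0.656 against B. Kupffer cell and macrophage markers had a median of -0.12 and B and plasma cell markers one of -0.11. The Kupffer cell and macrophage mean was 8.56 in C, 9.01 in A and 8.24 in B. For B and plasma cell markers it was 6.21 in C, 6.46 in A and 6.18 in B. In both lists the C mean lay below A and not below B. In whole liver, fewer lymphocytes and less RNA per lymphocyte cannot be told apart, and the part of lymphocyte content in the Sla and Ptpn22 results was not tested.

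9230114K14Rik, a long noncoding RNA gene without a settled function, had a difference of 2.37 ± 0.20 (SE, adjusted p = 4.98e-05). It read 6.90, 6.68 and 7.01 in C, against 4.50, 4.13 and 4.19 in A and 4.53, 5.40 and 4.21 in B. The low altitude mice lay between 4.05 and 4.76, near A and B, so that the 3 C mice stood above all other 15 mice of the study. C minus low altitude was 2.50 (adjusted p = 1.52e-05), and A and B together differed from low altitude by 0.14 (adjusted p = 0.837). A, B and low altitude averaged 4.28, 4.71 and 4.36, under the array medians.

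Fam25c, a gene with little known of its product, was lower in C. It read 7.17, 6.25 and 6.21 in C, against 9.07 to 11.23 in A and 10.03, 9.21 and 9.45 in B. The difference was -3.46 ± 0.45 (SE, adjusted p = 0.00456), with passes against A (-3.89, adjusted p = 0.00544) and B (-3.02, adjusted p = 0.0314). Without mouse C2 or C3 the call was lost (adjusted p = 0.059 and 0.063). The low altitude mice lay between the 2 groups, at 7.46 to 9.85, all 9 above the C mice and 7 of 9 below all A and B mice. C minus low altitude was -1.93 (adjusted p = 0.0868), and A and B together were 1.53 above low altitude (adjusted p = 0.0401).

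Read against low altitude, the 10 genes thus fell into different patterns. C differed from the 9 low altitude mice at 80 probe sets, 0.229%, and among the 11 called here 9230114K14Rik, Slc18b1, Rgl1 and Proz 1450201_at were within that number. A and B together differed from low altitude at 315 probe sets, 0.901%, among them Lipo3, Lipa 1423140_at, Fam25c, Slc5a1, Sla 1420819_at and Ptpn22. The 2 comparisons share the low altitude mice.

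Of 1563 probe sets in 47 gene lists 3 were called, namely Lipo3, Lipa and Slc18b1, against 0.0315% of all probe sets tested. All 3 belong to the acid lipase and vesicular amine transporter lists, the only 2 lists with a call. These lists are the families of the given marker genes Lipo3 and Slc18b1, so their calls are not a result about gene lists. List medians are taken over the brightest probe set of each gene, and over all 18193 genes 51.9% were positive, 1.07% were higher without overlap and 0.962% lower without overlap. Medians ran from -0.55 for male-biased to 0.51 for female-biased liver genes.

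**Figure D4:**
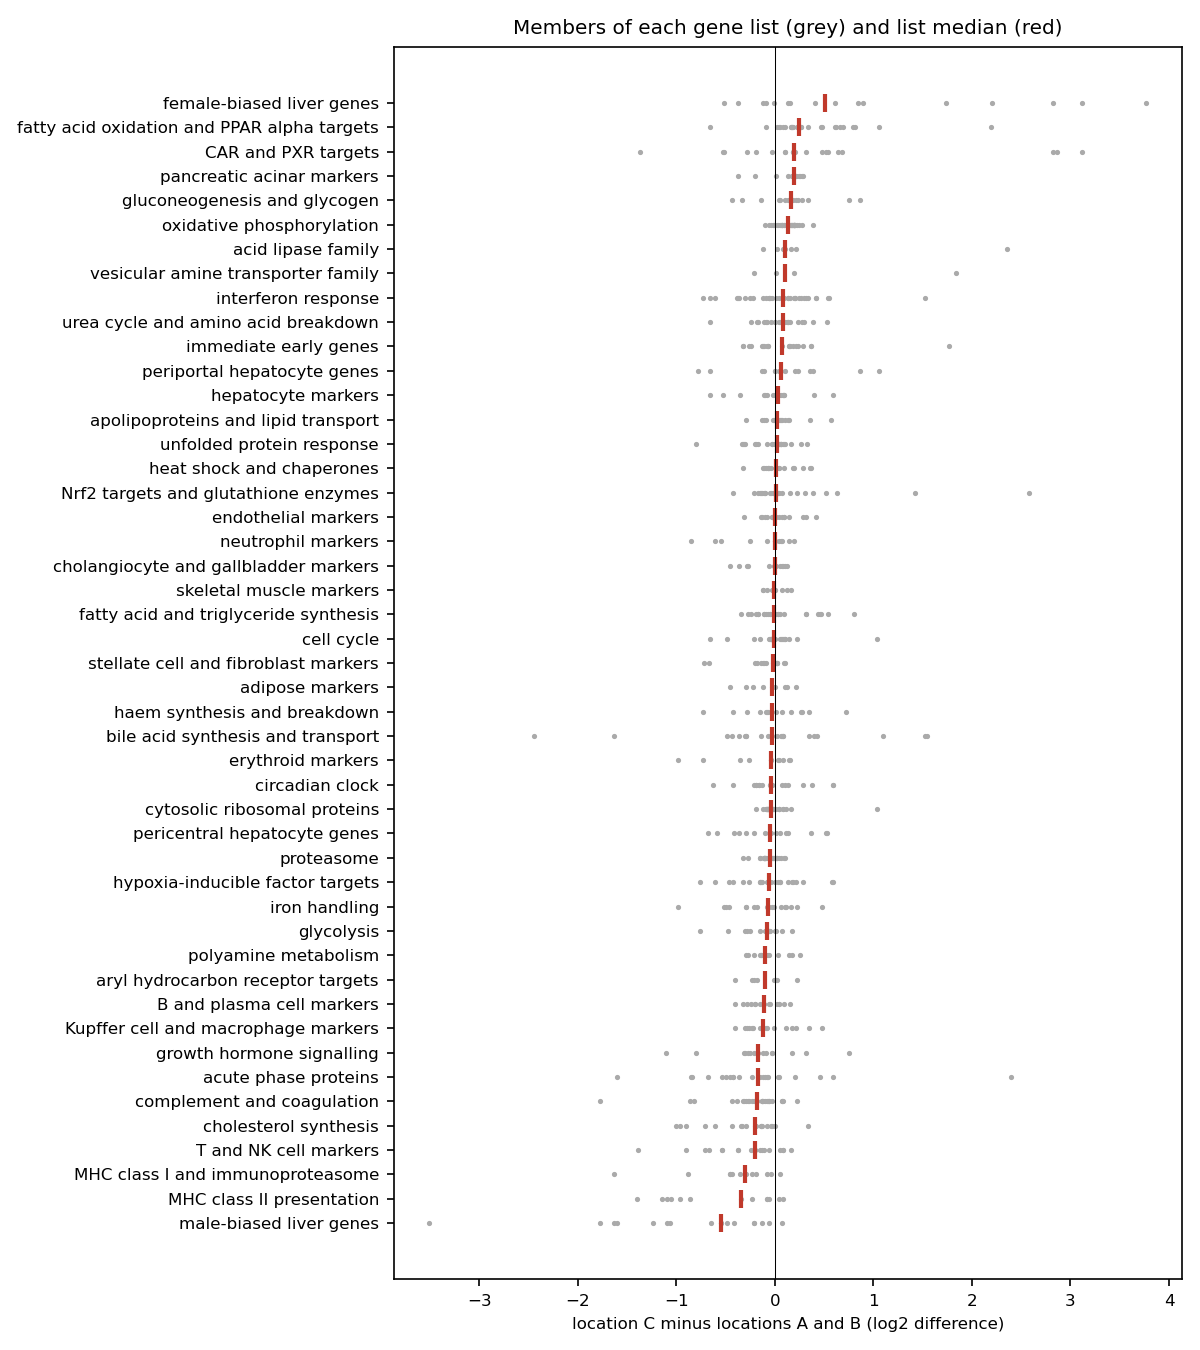
Difference between location C and locations A and B (horizontal axis, log2) for the members of the 47 gene lists (vertical axis, sorted by median). Grey points are genes by their brightest probe set and red bars are list medians, which run from -0.55 to 0.51.

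The list of fatty acid oxidation genes and targets of the receptor PPAR alpha was positive for 26 of 28, with a median of 0.25, 3 of them without overlap. The gene of the receptor, Ppara, was the lowest of the list at -0.66 by its brightest probe set, and its other probe sets differed by -0.60 and 0.49, with no call. Of 48 probe sets 0 were called by limma and 10 had an unadjusted p under 0.05. The list mean was 10.84 in C, 10.59 in A, 10.35 in B and 10.65 at low altitude. Low altitude mice ran from 9.94 to 11.08, a range that held all C mice, at 10.77 to 10.95. Plin2, which coats lipid droplets, read 12.43, 12.48 and 12.28 in C, against 11.85, 12.16 and 11.77 in A and 11.87, 11.36 and 11.25 in B (0.69 ± 0.17, SE, adjusted p = 0.294). The peroxisomal enzyme gene Ehhadh read 11.97, 12.63 and 11.97 in C, against 11.33, 11.66 and 11.34 in A and 10.83, 11.03 and 10.61 in B (1.06 ± 0.40, SE, adjusted p = 0.81). Low altitude mice overlapped both groups, from 11.59 to 12.42 for Plin2 and from 10.49 to 12.63 for Ehhadh. Oxidative phosphorylation genes were positive for 37 of 42 with a median of 0.14, and of 82 probe sets 0 were called by limma and 6 had an unadjusted p under 0.05. Their mean was 11.86 in C, 11.75 in A, 11.71 in B and 11.86 at low altitude, so C lay above A and B but not above low altitude.

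Cholesterol synthesis genes were negative for 17 of 19 with a median of -0.20, complement and coagulation genes for 25 of 29 with -0.18, and acute phase genes for 17 of 23 with -0.17. The cholesterol synthesis mean was 9.37 in C, 9.30 in A and 10.08 in B. For acute phase genes it was 12.41 in C, 12.37 in A and 12.79 in B. In both lists the C mean thus lay below B and not below A. The complement and coagulation mean was 11.42 in C and 11.67 in both A and B. The list of MHC class I and immunoproteasome genes, which also holds peptide transporters and other helpers of class I loading, was negative for 12 of 13 with a median of -0.31, and MHC class II genes, which present antigen on macrophages and B cells, for 11 of 13 with -0.35. None of these 5 lists had a limma call against A and B together, and the probe sets with an unadjusted p under 0.05 numbered 1 of 43, 1 of 39, 9 of 35, 2 of 31 and 6 of 25 in the order given. Against B alone 1 probe set of each MHC list was lower, for H2-D1 (-1.47, adjusted p = 0.0262) and for H2-Aa (-1.59, adjusted p = 0.0219). Both genes belong to families of near-identical sequences, so these values are uncertain by gene. The H2-Aa probe set that passed averaged 3.16 in C, 3.53 in A and 4.74 in B, under the array medians, with mouse B2 at 5.61. The brightest H2-Aa probe set averaged 9.40 in C, 10.69 in A and 10.39 in B and was not called. Cd74, the invariant chain of class II, averaged 10.03 in C, 11.92 in A and 10.94 in B (-1.40 ± 0.48, SE, adjusted p = 0.728). The class II mean was 7.47 in C, 8.19 in A, 7.86 in B and 7.12 at low altitude. The groups overlap, with the highest C mouse at 8.01 and the lowest A and B mouse at 7.53. Bile acid genes had a median of -0.03 over 11 positive and 12 negative members, which ran from -2.45 for Cyp7a1 to 1.54 for the transporter gene Slco1a4. Of their 40 probe sets 11 had an unadjusted p under 0.05 and 0 were called by limma. Cyp7a1 was lower and the export pump gene Abcc3 higher without overlap (1.52, adjusted p = 0.496). Glycolysis genes had a median of -0.08 and hypoxia-inducible factor targets one of -0.06, with 0 of 33 and 3 of 53 probe sets at an unadjusted p under 0.05, and 0 of 26 genes of the last list lay without overlap.

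Sex-biased liver genes varied widely between the mice of location C. Male-biased genes were negative for 16 of 17 and female-biased ones positive for 11 of 16, with 0 of 27 and 0 of 32 probe sets called by limma and 4 and 5 at an unadjusted p under 0.05. Sult3a1, a sulfotransferase typical of female liver, read 12.96, 3.84 and 12.27 in C, against 3.70, 3.40 and 12.97 in A and 7.75, 4.00 and 3.70 in B. Cyp2b13, a female-biased cytochrome P450, read 11.21, 5.62 and 11.19 in C, against 5.43, 5.56 and 11.74 in A and 5.60, 5.41 and 5.36 in B. Cyp7b1, a male-biased steroid hydroxylase, ran the other way, with 9.61, 12.57 and 9.18 in C, against 11.99, 12.24 and 8.85 in A and 13.32, 12.65 and 13.44 in B. Mice 1 and 3 of C, mouse 4 of A, and at low altitude mouse 1 of A and mouse 2 of B had the highest Cyp2b13, with 10.97 and 11.62 in the low altitude pair. None of these genes passed the test. Eif2s3y and Xist, the RNA that silences an X chromosome in females, lay inside the range of the other mice in these 5. Uty, also on the Y chromosome, read 6.16 in C1, just above the highest other mouse at 6.14, and 4.95 in C2, below all other mice.

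**Figure D5:**
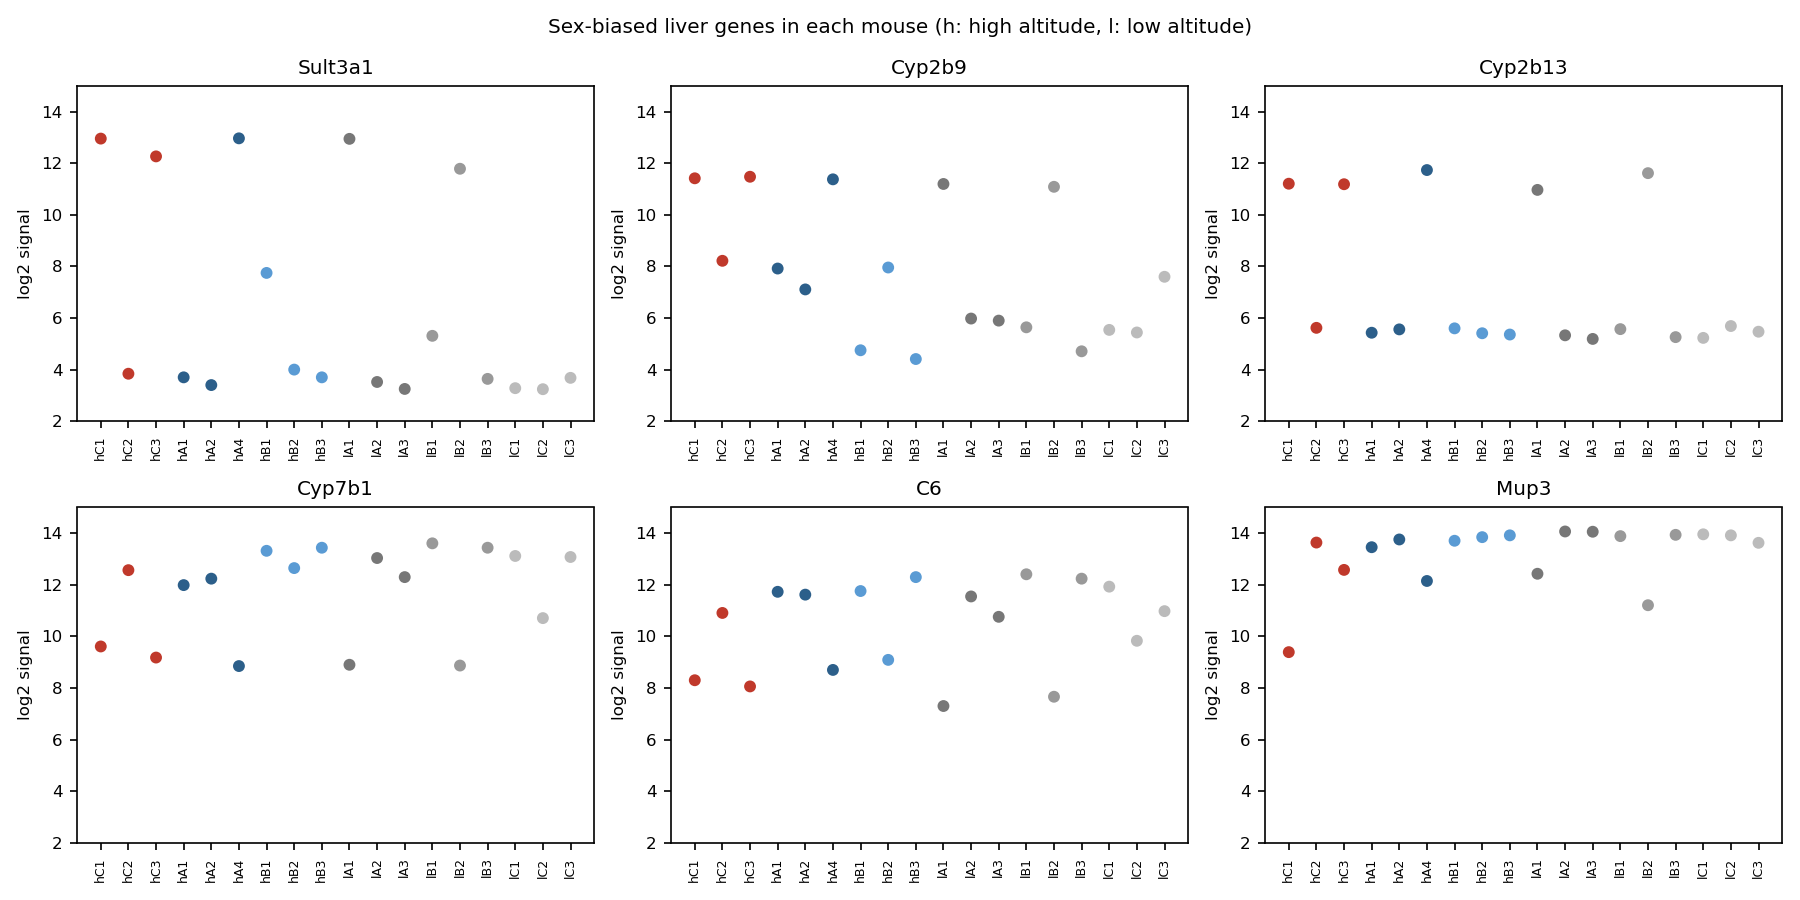
Log2 signal (vertical axis) of 3 female-biased genes (top row) and 3 male-biased genes (bottom row) in the 18 mice (horizontal axis, h for high and l for low altitude, then location and mouse number). Mice C1 and C3 read 12.96 and 12.27 for Sult3a1 while C2 read 3.84, and mouse A4 read 12.97.

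Some genes differed by at least 2-fold without overlap and were not called. They were chosen after their values were seen and are given as values. Serpina12, the adipokine vaspin and a male-biased liver gene, read 5.37, 7.47 and 6.06 in C, against 10.06, 9.32 and 8.12 in A and 11.08, 9.74 and 10.54 in B (-3.51, adjusted p = 0.238). Cyp7a1, the rate-limiting enzyme of bile acid synthesis, read 10.32, 8.13 and 9.74 in C by its brighter probe set, against 11.82, 10.55 and 12.12 in A and 12.20, 12.12 and 12.29 in B (-2.45, adjusted p = 0.24), and its second probe set differed by -2.68 (adjusted p = 0.183). Paip1, a regulator of translation, read 3.46, 4.35 and 3.43 in C, against 8.39, 7.45 and 6.62 in A and 7.37, 4.97 and 7.51 in B (-3.30, adjusted p = 0.0766). Trim30a, an interferon-induced ubiquitin ligase, read 5.88, 6.66 and 6.83 in C, against 4.96, 5.14 and 4.62 in A and 4.36, 4.87 and 4.74 in B (1.67, adjusted p = 0.081). Ifit1bl1 was lower in C (-1.46, adjusted p = 0.122). The list of interferon response genes had 20 positive and 15 negative members and a median of 0.08. Of its 53 probe sets 0 were called by limma and 0 had an unadjusted p under 0.05. Insig2, which restrains sterol synthesis, read 12.08, 11.72 and 12.13 in C, against 10.91, 11.41 and 10.34 in A and 10.78, 11.25 and 10.87 in B (1.05, adjusted p = 0.164). Other probe sets of Trim30a, Serpina12, Paip1 and Insig2 did not all follow in size. The second Trim30a probe set differed by 0.25, the second Serpina12 probe set by -0.43 and the other 3 of Paip1 by -1.66, -0.25 and -0.27, while both others of Insig2 differed by 0.92.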

How the data were processed

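Liver RNA of each mouse was labelled as biotinylated cRNA for 1 Affymetrix array, per the labels' protocols. The authors deposited log2 values, made with RMA in the R package affy per the submitters' processing notes; no versions are named there. RMA quantile normalizes arrays and compresses dim probe sets. Of 45101 probe sets 34945 had 1 gene symbol in the platform annotation, 932 several, 9160 were not listed and 64 were controls; 34741 Entrez numbers were found in the RefSeq table (GRCm38.p6). No low values were filtered. Scan dates and array detection calls were not given. The number of arrays limits the precision.

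limma 3.58.1 in R 4.3.3 fitted 6 location means over all 18 arrays (12 residual degrees of freedom), with eBayes and a mean-variance trend. The contrast high C minus the mean of high A and B was tested two-sided, Benjamini-Hochberg adjusted over 34945 probe sets. The mice of a place are separate animals, whose relatedness is not given. Mouse numbers name mice within a place. Same-numbered mice of different high altitude places did not deviate together (7 pairs, r from -0.292 to 0.215). Lists use the brightest probe set of each gene. Named were called probe sets without overlap, the 3 given marker genes, all their other probe sets, and leading members of the lists. The procedure was tested on simulated data. Alternatives included a fit on the 9 high altitude arrays alone, other scalings and probe set rules, and left-out mice and places. The members and lists were chosen with earlier results of these data known. Figures were drawn with matplotlib 3.10.9.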

Additional observations from a re-analysis of the deposited data

Results flagged for a closer look

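Levels of the called probe sets were searched for a single mouse far from the others of its group. The Actb difference and the array median of the A and B mice were searched too, for 24 groups in all. Dixon's test at 95% was used, which by chance flags about 1 group in 20. In 3 groups a mouse of A or B stood apart, with a gap above the critical share of 0.625 of the range of 6 mice. Mouse B1 read 9.30 for Proz 1450201_at with the next mouse at 5.75, a gap of 0.797 of the range. Mouse A4 read 4.86 for Lipo3 with the next at 4.03, a gap of 0.718. Mouse B2 read 5.40 for 9230114K14Rik with the next at 4.53, a gap of 0.689. All 3 lay on the side of the C mice, and none reached them. Without mouse B1 the difference of Proz 1450201_at was 4.69 and its call held.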

How the results depend on the processing

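The count of 11 calls became 20 with array weights, 17 with arrays centred on bright probe sets, 7 among probe sets above the median level, 17 with the mean of a gene's probe sets, 6 at an adjusted p under 0.01, 21 at 0.1, and 38 without location A. Leaving out single mice gave 6 (without C2) to 17 (without A4), with 7 without B3 and 7 without C3. C minus A had 12 calls above the median level against 21. With mouse number as a replicate block, although the numbers do not pair the mice, A minus B had 29 calls against 66, A and B minus low altitude 145 against 315, and C minus A and B 16 with 10 of the 11. 9230114K14Rik and Lipo3 passed in all 23 alternatives that hold them. Lipa turned to 0.22 (adjusted p = 0.993) under the brightest probe set rule, which takes another probe set. Slc18b1 lost its call without location B (adjusted p = 0.0566), Rgl1 without C2 (0.059) and under the brightest probe set rule, and Fam25c without C2 (0.059) and C3 (0.063). Slc5a1, both Proz probe sets, Sla and Ptpn22 lost theirs in 5 to 10 alternatives, at least 3 of the 9 left-out mice each and the fit on the 9 high altitude arrays alone (adjusted p from 0.0979 to 0.267), which made 11 calls with 6 of the same probe sets. For the other alternatives the cause of a changed count was not tested. The Actb difference of -0.15 ranged from -0.27 to -0.03 without single mice. Of 1034 list medians under alternatives 1018 kept their value within the spread between mice.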
